A study of Mus musculus with 2 samples.

Results

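Lipoxygenases and the enzymes of prostaglandin synthesis were followed in wounded mouse skin, as 10 genes chosen by name and measured by 16 of the 25697 probes on an Illumina bead array. The genes were Alox5, Alox5ap, Alox8, Alox12, Alox12b, Aloxe3, Alox15, Ptgs1, Ptgs2 and Ptges, of 17873 genes in all. The symbol column of the deposited table held 9 of them as spelled here, and Alox8 was listed there under its older name Alox15b, which its RefSeq accession ties to Alox8. Of the 10 genes, 8 passed the detection limit on at least 1 array, while Alox15 and Ptgs2 passed it on neither.

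The study compared wounds of C57BL6 mice carrying floxed beta-catenin alleles (b-catenin fl/fl), either without Cre, as littermate controls, or with Cre driven by keratin 14 (K14), the knockout. All mice were on a low calcium diet and 3 months old, and each received 2 full-thickness back wounds from a 6-mm punch, which were cut out with an 8-mm punch 3 days later. The series description gives n as 3 and also 3 mice per sample. The tables hold 1 array per group, read here as a pool of 3 mice, so no difference here has an error estimate or a test, and values describe these 2 arrays. The K14 promoter is known to act in keratinocytes, and deletion in other cells of the excised skin is not intended by this design; recombination was not measured here. In such whole-tissue RNA, fewer cells of a type and less RNA per cell cannot be told apart.

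Most of these enzymes make eicosanoids, signalling lipids oxidised from arachidonic acid that phospholipases free from membranes. The 5-lipoxygenase branch leads to leukotrienes, mostly in leukocytes, and the cyclooxygenases Ptgs1 and Ptgs2 lead to prostaglandins and thromboxane. In the outer epidermis, Alox12b and Aloxe3 act in sequence on a linoleate-bearing ceramide, a step needed for the water barrier, and loss of either causes ichthyosis in humans.

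Raw intensity spanned 118.5 to 40798.1 on the control array and 120.4 to 40969.4 on the knockout array. A probe counted as detected at 181.8 or more in the control and 177.9 or more in the knockout. The knockout array was dimmer as a whole, with a median raw ratio to the control of 0.906 over 9715 detected genes. Folds are therefore given on normalized intensities, which even this out, subtract background and carry an offset of 16. The 2 probes for the targeted gene Ctnnb1 read 1267.3 and 2629.9 raw in the control and 984.9 and 2300.6 in the knockout, at log2 folds of -0.17 and 0.01. Where they lie relative to the deleted part was not analysed here, so they check nothing about the genotype labels. As markers of skin, 4 of 4 basal keratinocyte genes (Krt5, Krt14, Krt15 and Col17a1) and 4 of 4 fibroblast genes were detected on both arrays. The arrays differed in other ways: 4 of 4 slow muscle markers stood over 2-fold up in the knockout array (list median 4.02 on the log2 scale) and 3 of 4 red cell markers over 2-fold down. The Y-linked Ddx3y read 899 (control) and 191 (knockout) after normalization, and Eif2s3y was detected in the control only. The part of these differences in the results below was not tested.

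**Figure D1:**
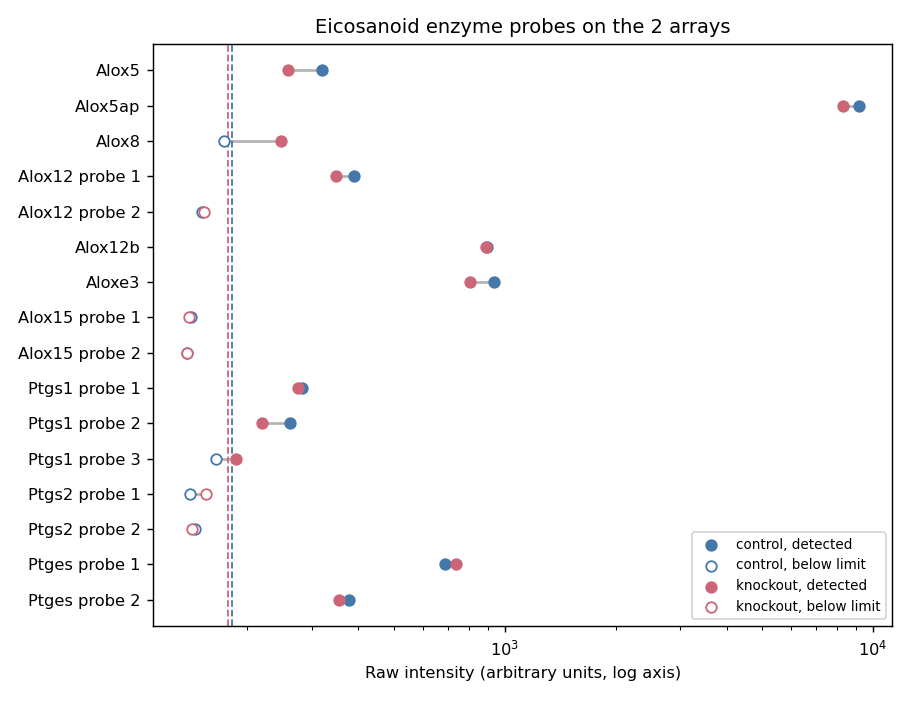
Raw intensity (log axis) of each of the 16 probes in the control and the knockout array, filled where detected, with each array's detection limit as a dashed line. Both probes of Alox15 and of Ptgs2 lie left of both limits, and Alox8 lies between 173 in the control and 246.6 in the knockout.

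Alox8 stood apart from the other members and was higher in the knockout array. It encodes the mouse 8S-lipoxygenase, an enzyme known to be induced in mouse skin by phorbol esters. Its single probe read 173 raw in the control, below the limit, and 246.6 in the knockout, above it. After normalization the values were 40.7 and 125, a fitted fold of 3.07 (log2 fold 1.62) that uses a control value below the limit. Against the lowest detected control level the knockout was at least 2.57-fold higher. The authors' deposited normalized table, whose values do not go below the raw background level, gave 167 and 239, a 1.43-fold difference, and there 0 of the 8 members were 1.5-fold higher, against 0.566% of all detected genes. Wound-edge keratinocyte markers, 5 of 5 detected, had a median of 0.13 (sums 83920 and 95060). Of the sebocyte markers 3 of 4 were detected (sums 981.7 and 1259), with Elovl3 at 0.75, Mc5r at 0.34 and Awat2 at -0.53, and the part of either cell type in the Alox8 value was not tested.

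Of 9715 detected genes, 309 (3.18%) were detected in the knockout only and 349 (3.59%) in the control only. Of the 309, 4 had a bound of at least 2-fold, Alox8 having the smallest of the 4. No other member reached 1.5-fold in either direction on its brightest probe. The count of members at least 1.5-fold higher was thus 1 of 8, where 3.53% of all detected genes were, and 0 of 8 were at least 1.5-fold lower, where 4.51% of all detected genes were. At 2-fold the higher member was again Alox8, against 0.597% of all detected genes, and none was lower, against 0.618%. Alox8 belonged to the dimmest of 3 equal groups of detected genes, in which 7.69% stood 1.5-fold or more higher and 1.39% stood 2-fold or more higher. Alox8 entered the detected set by its knockout value alone, so the detection rule admitted it through the same difference that was then counted. With detection required on both arrays, which leaves 7 members without Alox8, 0 rose by 1.5-fold, against 2.22% of all genes kept. Likewise 0 of the 7 fell by 1.5-fold, against 3.12%. Over these 7 members the median log2 fold was 0.05, and over all genes detected on both arrays it was 0.01.

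**Figure D2:**
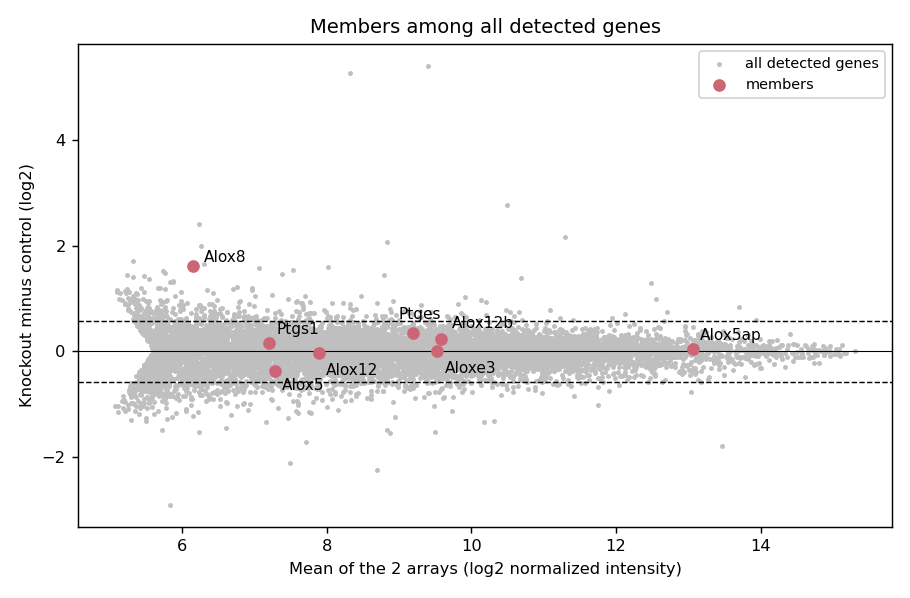
Log2 difference, knockout minus control, against the mean log2 normalized intensity of the 2 arrays for 9715 detected genes (grey) and the 8 detected members (red). Dashed lines mark 1.5-fold, and Alox8 alone of the members lies outside them, at the dim end where the grey cloud is widest.

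Aloxe3, Alox12b and Alox8 are consecutive protein-coding genes on mouse chromosome 11, and Alox12, Alox12e and Alox15 follow one another elsewhere on it. Within the first run, on the normalized intensities used here, Alox8 was at least 2.57-fold higher and its neighbours stood at log2 folds of 0.24 and 0.00. The 2.57-fold is a bound. The fitted fold of Alox8 was 3.07 on these intensities and 1.43 in the authors' intensities, the latter short of 1.5-fold. The 250 bases before the start of Alox8 and of its neighbour Alox12b are shown for a reason of size. On the normalized intensities used here, these adjacent genes fell on different sides of the 1.5-fold rule. They are from RefSeq on GRCm38.p6, read 5' to 3' on the gene's strand, and capitals mark GC boxes (GGGCGG or its reverse complement CCGCCC). The Alox8 stretch is chr11:69197844-69198093 on the minus strand and the Alox12b stretch chr11:69156822-69157071 on the plus strand.
Alox8: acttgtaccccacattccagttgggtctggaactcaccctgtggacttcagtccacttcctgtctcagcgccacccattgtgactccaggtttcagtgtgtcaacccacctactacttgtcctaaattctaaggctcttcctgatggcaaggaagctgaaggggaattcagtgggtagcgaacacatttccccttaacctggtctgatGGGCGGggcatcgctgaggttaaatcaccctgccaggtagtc
Alox12b: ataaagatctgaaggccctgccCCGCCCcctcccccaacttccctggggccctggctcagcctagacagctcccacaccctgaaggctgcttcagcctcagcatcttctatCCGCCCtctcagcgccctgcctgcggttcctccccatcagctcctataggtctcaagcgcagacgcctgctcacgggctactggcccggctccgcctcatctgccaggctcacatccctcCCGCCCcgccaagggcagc

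Alox8 held 1 GC box and Alox12b 3. Over 32851 promoter windows of the same length, 32.7% held at least 1, and 6 of the 7 members in the table did, with Ptgs1 as the exception. The core recognised by TCF/LEF, the DNA-binding partners of beta-catenin, was searched on both strands as CTTTGA or CTTTGT and was in none of the 7 stretches, against 27.6% of all windows. A TATA box, searched as TATAA on both strands, was in none of them either (22.8% of all windows). A missing match says only that these letters are not in this window.

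Alox12b and Aloxe3, the members that act in the epidermal barrier, showed little difference. Alox12b, the 12R-lipoxygenase that starts the ceramide oxidation, read 896.7 (control) and 892.5 (knockout) raw, and 705 and 834 after normalization (log2 fold 0.24, 1.18-fold). Aloxe3, which isomerises the product of Alox12b, read 936.2 and 805.7 raw and 741 and 739 normalized, a log2 fold of 0.00. The nearly equal raw values of Alox12b became a small excess, and the lower raw value of Aloxe3 an equality, because the dimmer knockout array was scaled up. Suprabasal keratinocyte markers, from the cells that use these enzymes, had a median of -0.01 over 4 detected genes, with the early differentiation keratin Krt1 at 0.48, Lor at -0.03 and Krt10 at -0.07. Their summed normalized intensity came to 63310 (control) and 64070 (knockout).

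The 12- and 15-lipoxygenases were level or too dim to measure. Alox12, the platelet-type 12S-lipoxygenase that epidermis also expresses, read 391.1 (control) and 347.7 (knockout) raw on its detected probe, 241 and 235 after normalization (log2 fold -0.03). Its other probe, at 150.9 and 152.9 raw, was below the limit on both arrays. Alox15, which in mice makes 12- and 15-hydroxy products in eosinophils and resident macrophages, read 141 and 139.3 on one probe and 137.4 and 137.2 on the other, all below the limits. None of the 4 eosinophil markers was detected on either array. The epidermis-type 12-lipoxygenase Alox12e, a related gene outside the 10, read 2537.8 and 1914.5 raw and 2223 and 1958 normalized, at a log2 fold of -0.18.

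In the leukotriene branch, the enzyme was somewhat lower in the knockout array and its helper was level. Alox5, the 5-lipoxygenase, read 319.7 (control) and 258.5 (knockout) raw, and 176 and 138 after normalization (1.28-fold lower, log2 fold -0.36). Its fold lay at percentile 13.0 of all detected genes, short of the 1.5-fold rule. Alox5ap, the membrane protein that presents arachidonic acid to Alox5, was far above the limits at 9144.5 and 8271.9 raw, and at 8387 and 8671 normalized (log2 fold 0.05, and -0.05 under median scaling).

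Markers of the leukocytes that carry this branch did not share a direction. Neutrophil markers were above 0 in 5 of 5 detected genes of 7 with a probe (median 0.36), and their summed normalized intensity came to 41650 (control) and 49290 (knockout). Of these, S100a8 stood at 0.14, S100a9 at 0.36 and the chemokine receptor Cxcr2 at 0.95, while Mpo and Mmp8 were not detected. S100a8 (26090 and 28700) and S100a9 (11690 and 15000) made up most of the neutrophil sum. Macrophage markers were below 0 in 5 of 6 (median -0.15, sums 27760 and 22760), with the mannose receptor Mrc1 at -0.77 and Cd14 at 0.00. Mrc1 alone (10950 and 6440) made up most of the fall in the macrophage sum. Mast cell markers had a median of 0.04 over 5 genes (sums 8117 and 7418), and the part of any of these cells in the Alox5 value was not tested.

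Further leukotriene genes gave a mixed picture. Ltc4s, the synthase of leukotriene C4, read 308.5 (control) and 258 (knockout) after normalization (log2 fold -0.26), and Lta4h, which makes leukotriene B4, was below the limit on both probes. Ggt5, a glutamyl transferase that turns leukotriene C4 into D4, was 1.61-fold lower in the knockout array (445.6 and 298.1 raw, 290 and 180 normalized), with its other detected probe at -0.31. Cysltr1, a receptor for leukotriene D4, was 1.76-fold lower (511.1 and 316.8 raw, 352 and 200 normalized, log2 fold -0.81), whereas Cysltr2 was not detected. In the authors' intensities Ggt5 was 1.35-fold lower and Cysltr1 1.46-fold lower. Markers of Langerhans and dendritic cells stood on the same array at -0.74 (Cd207) and -0.65 (Cd209a), with sums of 755 and 495.3 over 3 of 5 genes detected. Xcr1, the other detected one, went the other way, seen in the knockout only (fitted log2 fold 0.66, at least 1.285-fold higher). Itgax and Flt3 were not detected, and the part of these cells in the Cysltr1 value was not tested. Mgst2, a membrane transferase that can also form leukotriene C4, was 1.52-fold higher (385 and 586, log2 fold 0.61), and in the authors' intensities 1.39-fold higher.
The leukotriene B4 receptors were nearly level, Ltb4r1 at 0.11 and Ltb4r2 at 0.15, as was Fpr2, a formyl peptide and lipoxin receptor of neutrophils, at 0.27.

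Both cyclooxygenases read near or below the detection limits. Ptgs2, the inducible form, was below the limit on both of its probes, at 139.8 and 144.6 raw in the control and 155.1 and 141.5 in the knockout, so its level in these wounds at day 3 has only a bound and no fold is given. Ptgs1, the constitutive form, was detected by 3 probes that disagreed. Its brightest read 281.6 (control) and 275.7 (knockout) raw (140 and 156 normalized, log2 fold 0.16), and the next read 261.6 and 219.9 (121 and 95.9 normalized, log2 fold -0.34). The faintest was detected in the knockout only, at 164.9 and 186 raw, at least 1.21-fold higher. Over 2160 genes with 2 or more probes detected on both arrays, the folds of a gene's probes spanned a median of 0.23 and a 90th percentile of 0.55 on the log2 scale, and the 0.50 between the 2 brighter Ptgs1 probes lies within that range.

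Ptges, the inducible synthase that converts the cyclooxygenase product to prostaglandin E2, had the highest fold of the other 7 detected members. Its brighter probe read 689.4 (control) and 737.6 (knockout) raw, and 518 and 662.5 after normalization (1.28-fold, log2 fold 0.35). The second probe read 377.1 and 354.4 raw and 228 and 243 normalized (log2 fold 0.09), so the probes shared a sign after normalization but not before it. The 1.28-fold of the brighter probe lay at percentile 89.3 of all detected genes. Of the other prostaglandin E synthases, Ptges2 stood at 0.32 and Ptges3 at -0.45.

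Among the other terminal synthases, Ptgis, which makes prostacyclin, was 1.62-fold higher in the knockout array, at 1133.3 and 1513.4 raw and 925 and 1497 normalized. In the authors' intensities it was 1.57-fold higher. The endothelial markers Cdh5, Pecam1 and Tie1 were also higher there (log2 folds 0.67, 0.30 and 0.38, sums 849.8 and 1110), and their part in the Ptgis value was not tested. Hpgds, the prostaglandin D synthase of blood cells, stood at -0.44 on its brighter probe and -0.88 on the other, and Ptgds, the lipocalin-type form, at -0.41. Thromboxane synthase, Tbxas1, stood at 0.15 with its other probe at -0.17. Platelet markers, 4 of 5 detected, ran from -0.32 for Pf4 to 0.72 for Ppbp (sums 2792 and 2430).
Hpgd, which inactivates prostaglandins, stood at -0.44 and their uptake carrier Slco2a1 at -0.20. Ptger2, Ptger3 and Ptger4, receptors for prostaglandin E2, were below the limit on every probe, while the prostacyclin receptor Ptgir was detected and stood at -0.08. The thromboxane receptor Tbxa2r stood at -0.03 on its brighter probe, and its other probe was detected in the control only (193.2 and 173 raw), at least 1.19-fold lower in the knockout.

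Arachidonic acid release was read from 13 phospholipase genes, of which 8 were detected. Of these, 5 were detected on both arrays and 4 of the 5 lay above 0, where 4599 of all 9057 genes detected on both arrays did. Among the 4, Pla2g4d (183.9 and 183.4 raw) and Pla2g2e (214.3 and 210.2 raw) were slightly lower in the knockout before normalization. Pla2g2d, Pla2g4b and Pla2g6 passed the limit in the knockout only. Of all detected genes, 3.18% passed it in the knockout only and 3.59% in the control only. Pla2g4b read 181 (control) and 181.3 (knockout) raw, nearly equal values that fell on different sides of limits of 181.8 and 177.9. Pla2g6 read 176.7 and 189.3 raw, with a bound of 1.28-fold. The bound of Pla2g2d, a secreted phospholipase of dendritic cells, was only 1.04-fold (144.5 and 179.1 raw). Pla2g4a, the main arachidonate-releasing enzyme, was not detected. The 5 phospholipases detected on both arrays were all short of 1.5-fold. Pla2g2f (0.44, an epidermal form) and Pla2g12a (0.33) were the highest of them, followed by Pla2g4d (0.14) and Pla2g2e (0.12). Pla2g4f, the brightest, was level at 2105 (control) and 2089 (knockout) after normalization (log2 fold -0.01).

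Of the barrier genes that work beside Alox12b, 5 of 7 with a probe were detected, all 5 on both arrays. Of these, 4 lay above 0 and the median log2 fold was 0.40, or 0.23 in the authors' intensities. Over all 9057 genes detected on both arrays, 4599 lay above 0 and the median was 0.01. Sdr9c7, a dehydrogenase acting after Aloxe3, was 1.87-fold higher on the probe with the highest mean (342.6 and 469.5 raw), yet a probe of nearly the same brightness stood at -0.02 (424.6 and 378.7 raw). A dimmer probe was detected in the knockout only (158.6 and 184.4 raw), at least 1.17-fold higher, so the direction of Sdr9c7 depends on the probe. The count of 4 and the median of 0.40 use its probe with the highest mean, so they depend on that choice too. The omega-hydroxylase Cyp4f39 stood at 0.40, the epoxide hydrolase Ephx2 at 0.42, the transglutaminase Tgm1 at 0.17 and the acylceramide synthase Pnpla1 at -0.24. Before normalization Tgm1 was slightly lower in the knockout (1300.7 and 1243.3 raw).

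Over the whole list of other pathway genes, 55 of 59 had a probe and 38 were detected. Of these 38, 4 were at least 1.5-fold higher (Pla2g2d, Mgst2, Ptgis and Sdr9c7, the first by its fitted value and not by its bound), where 3.53% of all detected genes were, and 2 at least 1.5-fold lower (Ggt5 and Cysltr1), where 4.51% were. Of the 35 detected on both arrays, 19 lay above 0 and 16 below, with a median of 0.11. Of the 9057 genes detected on both arrays, 4599 lay above 0 and 4441 below, with a median of 0.01.

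**Figure D3:**
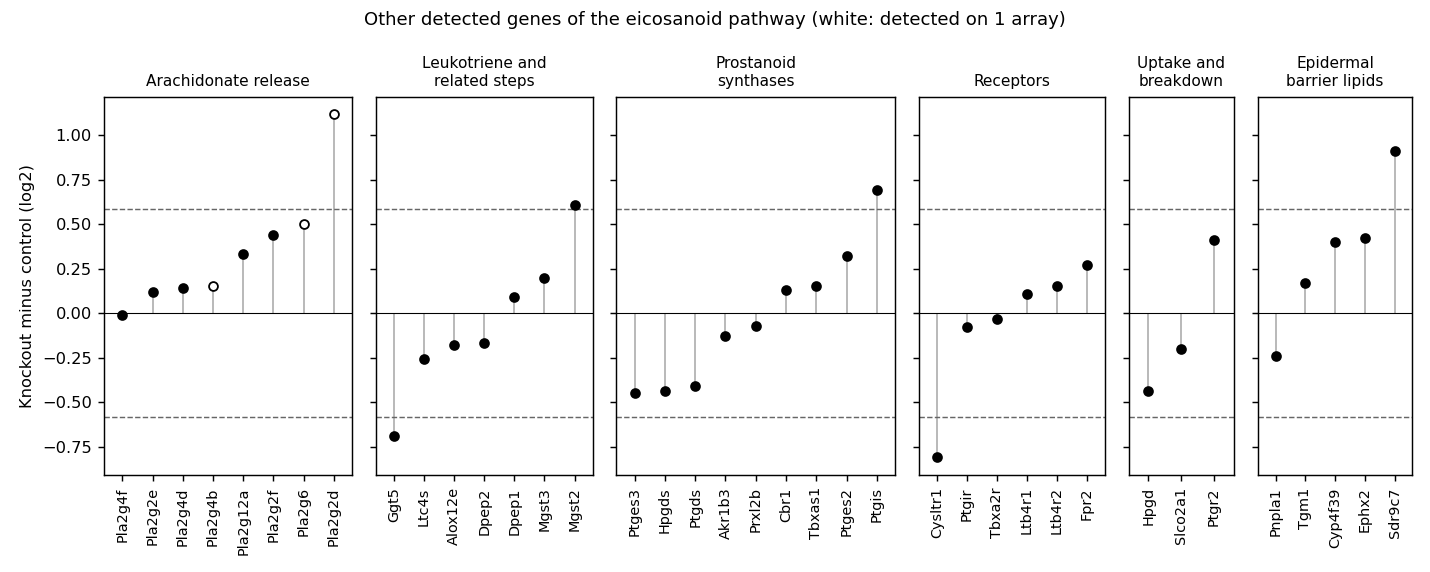
Log2 difference, knockout minus control, for the 38 detected pathway genes outside the 10 members, grouped by step, with dashed lines at 1.5-fold and white points for genes detected on 1 array. Cysltr1 (-0.81) and Ggt5 (-0.69) lie below the lower line, and Pla2g2d, Sdr9c7, Ptgis and Mgst2 above the upper one.

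**Figure D4:**
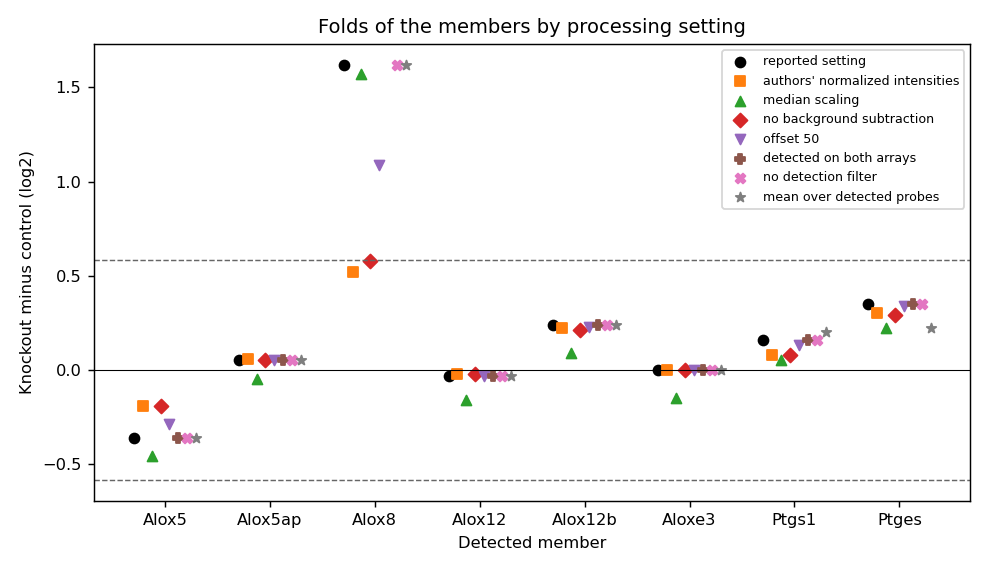
Log2 difference, knockout minus control, of each detected member under the reported setting (black) and each alternative (coloured), with dashed lines at 1.5-fold. Alox8 runs from 0.52 to 1.62, while the other 7 lie between -0.46 and 0.35 throughout.

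Processing mattered most for the dim Alox8. Its fold ran from 0.52 in the authors' intensities and 0.58 without background subtraction to 1.62, and an offset of 50 gave 1.09. A background left in both values pulls a dim ratio toward 1. The larger folds rest in turn on a control value near background, 173 raw where the median of that array was 177.3. The other 7 detected members ran from -0.46 (Alox5 under median scaling) to 0.35 (Ptges), and none of them reached 1.5-fold in any setting.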

How the data were processed

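Total RNA of wounded skin was labelled with biotin and read on 1 Illumina array per group, per the labels' protocols; the submitters' processing notes name GenomeStudio 2011.1. The authors deposited 1 table of average bead intensity per probe, not normalized, per the file headers, and another of normalized intensity made by steps not given in the sources used here. Both deposited tables list a detection p-value per probe. Those of the table that was not normalized, the ones used here, were out of step with its intensities across rows (Spearman's rho 0.00244 for the control array and -0.000406 for the knockout array). They were therefore paired with intensity by rank within each array, and the lowest intensity with a value under 0.01 became the detection limit.

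The raw values went through neqc (limma 3.58.1, R 4.3.3), with normexp background correction, an offset of 16, quantile normalization and log2. Dim probes lose fold size through the offset, and quantile normalization hides a shift shared by all genes. Symbols were updated through RefSeq (GRCm38.p6, names only), which matched 25376 of 25697 probes. A gene took its brightest detected probe, and a gene detected on 1 array has a bound against the other array's lowest detected level. A single array per group allows no test, so genes were counted at 1.5-fold. The number of arrays limits the precision. The members and lists were chosen with earlier results of these data known. Named were every member probe, pathway genes past 1.5-fold, a fixed set of close partners, and markers by list; any other gene was chosen after its value was seen, the Y-linked pair and the promoter motifs included. Among these are Pla2g12a, Pla2g2f, Pla2g4b, Pla2g4d, Pla2g4f, Pla2g2e, Pla2g6, Cyp4f39, Ephx2, Tgm1, Pnpla1, Slco2a1, Ptgir, Tbxa2r and Fpr2. The 7 alternatives were the authors' intensities, median scaling, no background subtraction, an offset of 50, detection on both arrays, no detection filter, and the mean over detected probes.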

Additional observations from a re-analysis of the deposited data

How the results depend on the processing

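With 1 array per group there is no error to set a change of setting against, so a log2 value was held to have moved when it shifted by 0.58 (1.5-fold) or more, and a count when it changed by over 1.5 times. The count of higher members was 1 at both 1.5-fold and 2-fold and became 0 in the authors' normalized intensities, without background subtraction and with detection required on both arrays, the last because Alox8 was not detected in the control. Of 38 pathway genes, the 4 at least 1.5-fold higher became 2 in the authors' intensities, without background subtraction and with an offset of 50, and 1 under median scaling. The 2 at least 1.5-fold lower became 0 in the authors' intensities and without background subtraction. The red cell marker median of -1.75 became -1.12 in the authors' intensities and -1.13 without background subtraction, and the slow muscle median of 4.02 became 3.05 and 3.03. Of 195 recomputed values, 177 stayed within these limits, a count that does not measure stability. Both changes of the detection filter left the fold of each member they kept unchanged. A small value can also change much within the limit: the Langerhans and dendritic median of -0.65 became -0.10 without a detection filter. Median scaling lowered the median of all detected genes by 0.10, and all detected genes at least 1.5-fold higher and lower went from 3.53% and 4.51% to 2.5% and 7.12%. In the authors' intensities these shares were 0.566% and 0.772%. No paired analysis was possible because each group has 1 array and the labels carry no replicate numbers. For Alox15 and Ptgs2, signal below the detection limits sets only an upper bound.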
